A study of Mus musculus with 27 samples.

Results

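Adenomas of Braf-mutant mice labelled as lacking Fosl1 in the intestinal epithelium were set against normal intestinal tissue of control mice, gene by gene, within 1 table of normalised counts. The 12 libraries of the comparison, out of 27 in the series, were the 6 columns labelled as Fosl1 knockout adenomas and the 6 columns labelled as oil-treated controls. All genes of the table belonged to the comparison, and 14806 of its 15176 genes passed a filter on low values. The knockout mice carried BrafV637E/+;Vil-CreERT2/+;Fosl1lox/lox and received 5 mg of tamoxifen by gavage on 2 days at 6 weeks of age, which switches on a Cre recombinase driven by the villin promoter in intestinal epithelium. The control mice were BrafV637E/+;Vil-CreERT2/+ animals given the oil without tamoxifen on 2 days, also at 6 weeks of age, so they carried the Braf allele and the Cre without its induction. The same table held 5 adenomas labelled BrafV637E, with Fosl1 not floxed and no treatment on their own labels; the shared protocol gives 6 weeks as the age at treatment. One further library, titled as a knockout but with a Braf genotype label and library name, was placed in no group. Knockout and control tissue therefore differed at once in tamoxifen, Braf activation, the floxed Fosl1 alleles and tumour against normal tissue, and these cannot be told apart. The site along the gut, the age at collection and the sex were not given, and the knockout samples were called adenomas in their titles but intestinal epithelial tissue in their tissue field.

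BRAF is a kinase of the RAS to ERK pathway, and its V637E change in the mouse corresponds to the activating change common in serrated tumours of the human colon. ERK activity raises and stabilises FOSL1, also called FRA1, which pairs with JUN proteins to form the AP-1 transcription factor. The small intestinal epithelium renews from crypt stem cells into absorptive enterocytes and into goblet, Paneth, enteroendocrine and tuft cells. After injury, crypts can pass through a regenerative state that shares markers with the fetal gut.

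Fosl1 itself was not analysed here, and these libraries cannot show its deletion. Braf, at chr6:39603237-39725463 of GRCm38 on the minus strand, had 15.6, 20.1 and 25.5 nCPM as lowest, median and highest level in knockout adenomas, against 9.24, 11.8 and 12.7 nCPM in controls. The unit nCPM is the deposited normalised count scaled to a library total of 1000000, and 3 levels given together are always the lowest, median and highest of a group's libraries. All 6 knockout adenomas had more Braf RNA than every control, a log2 difference of 0.77 with a standard error of 0.16 (limma, adjusted p = 4.65e-04; exact two-sided permutation test p = 0.00216, the smallest that 924 assignments allow). Exons of 26 genes named here overlap those of another tested gene on the other strand, among them Braf with Ndufb2, Atg9b with Nos3, Slc13a2 with its antisense gene and Notum with its antisense genes. The use of strand in counting was not stated, so reads of such pairs cannot be told apart.

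The 6 controls resembled each other more than the knockout adenomas did. Pearson correlations of log2(nCPM + 1) across genes lay between 0.9036 and 0.9722 among knockout adenomas, between 0.9732 and 0.9862 among controls, and between 0.7322 and 0.8841 across the 2 groups. The first principal component separated the groups with no overlap and held 72.3% of the variance. Mitochondrially encoded genes took between 5.24% and 28.5% of counts in knockout adenomas and between 7.45% and 23.4% in controls, with the maximum in knockout 2. Estimated depth was 4.08 to 6.50 M counts in knockout adenomas and 5.27 to 6.80 M in controls, where M stands for 1000000. All 6 controls, but only knockout 2 and knockout 3 among the adenomas, held small fractions in place of zeros, so that a difference in how columns were made ran nearly parallel to the groups. With a term for this difference, named the fraction term from here on, the calls of Apoa4, Cdk1, Dnmt3b, Gata4, Lyz2 and Slc16a1, named further on, were lost. A value under 0.0793 nCPM rounds to 0 normalised counts and is read here as no count. In knockout 2, where 1 read was estimated at 1.546 normalised counts, a value just above this cut can also stand for no read.

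The epithelial markers that define the tissue were present in every library. Cdh1, which encodes E-cadherin, had 768, 1252 and 1581 nCPM in knockout adenomas, against 398, 474 and 548 nCPM in controls. Vil1, the villin of the brush border and the source of the Cre promoter, had 598, 936 and 1244 nCPM in knockout adenomas, against 2343, 2631 and 2765 nCPM in controls. E-cadherin RNA was thus higher and villin RNA lower in the adenomas, with no overlap for either gene.

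A majority of the measured genes differed between knockout adenomas and controls in the fit without the fraction term. Of the 14806 genes, 5535 (37.4%) were higher and 2874 (19.4%) lower in knockout adenomas, together 56.8%, at an adjusted p below 0.05 (limma on log2(nCPM + 1), Benjamini-Hochberg over all genes tested). A difference of at least 2-fold was reached by 2799 of the higher genes (18.9% of those tested) and 1593 of the lower ones (10.8%). Levels did not overlap between the 6 knockout and 6 control libraries for 3105 higher genes (21.0%) and 1804 lower genes (12.2%). The median gene sat 0.27 higher on the log2 scale in knockout adenomas. After rescaling by trimmed means that shift was 0.05 and the split became 4454 higher and 4099 lower, so small differences close to the median gene depend on the scaling. With the fraction term 2928 genes were higher and 2579 lower, no longer a majority, and the median gene sat 0.07 higher. Counts of gene lists given further on are to be read against these shares of 37.4% and 19.4% and the median of 0.27. List counts given with the fraction term are to be read against its own 2928 and 2579.

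The genes that rose most included markers of the regenerating and fetal epithelium and of squamous or mesothelial surfaces. Clu, at chr14:65968483-65981547 on the plus strand, encodes clusterin, a secreted chaperone that marks revival stem cells of the damaged mouse crypt. It had 929, 2113 and 4966 nCPM in knockout adenomas, against 5.17, 5.66 and 8.02 nCPM in controls, a log2 difference of 8.20 (SE 0.36, adjusted p = 2.58e-12). Even the lowest adenoma held far more Clu RNA than the highest control. Anxa1, at chr19:20373428-20390944 on the minus strand, encodes the anti-inflammatory annexin A1. Its levels were 134, 446 and 587 nCPM in knockout adenomas, against 0.592, 1.14 and 1.63 nCPM in controls. Ly6a, the Sca-1 antigen of fetal-like mouse epithelium, had 124, 415 and 663 nCPM in knockout adenomas, against 0.592, 1.35 and 4.08 nCPM in controls. Both genes were near the lower end of detection in every control and well expressed in every adenoma, with log2 differences of 7.36 and 6.83.

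Atg9b, at chr5:24384181-24392143 on the minus strand and encoding a lipid scramblase of autophagy, had the largest difference of all named risers, 8.91 on the log2 scale (SE 0.30, adjusted p = 2.88e-14). Its levels were 589, 806 and 2059.9 nCPM in knockout adenomas, against 0.299, 0.868 and 1.80 nCPM in controls. Its exons overlap those of Nos3 on the other strand, but Nos3, the endothelial nitric oxide synthase, did not pass 1.85 nCPM in any knockout adenoma and held no count in any control. Il1rn, the antagonist of the interleukin-1 receptor, had 117, 468 and 779 nCPM in knockout adenomas, against 0.903, 1.19 and 3.69 nCPM in controls. Cybrd1, the duodenal iron reductase, had 928, 1335 and 6899 nCPM in knockout adenomas, against 6.35, 13.6 and 23.1 nCPM in controls. Cybrd1 was abundant in all adenomas, and knockout 3 alone held the highest value, several times that of the median adenoma.

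The other named risers were also low in all controls and high in all adenomas. Genes were named for a large difference without overlap of the groups, so this shape follows from the choice. Khdc1a rose by 8.00 on the log2 scale and had no count in 5 of the 6 controls. Ly6d, a surface antigen of squamous and urothelial cells, rose by 7.85, and Msln, the mesothelial antigen mesothelin, by 6.26. Sprr1a, a cornified envelope precursor, had 59.6, 145 and 361 nCPM in knockout adenomas, against 0.160, 0.940 and 1.63 nCPM in controls. Msx1, a homeobox factor, rose by 6.70, and Stra6, the cellular receptor for retinol-binding protein, by 6.37. Plat, the tissue plasminogen activator, had 88.5, 105 and 157 nCPM in knockout adenomas, against 0.0341, 0.378 and 0.819 nCPM in controls. Samd5 rose by 6.37, and Syt8, a synaptotagmin, by 6.31. For these 15 risers the adjusted p lay between 2.88e-14 and 4.86e-07, and no single library, when left out, raised any of them above 2.71e-06.

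**Figure D1:**
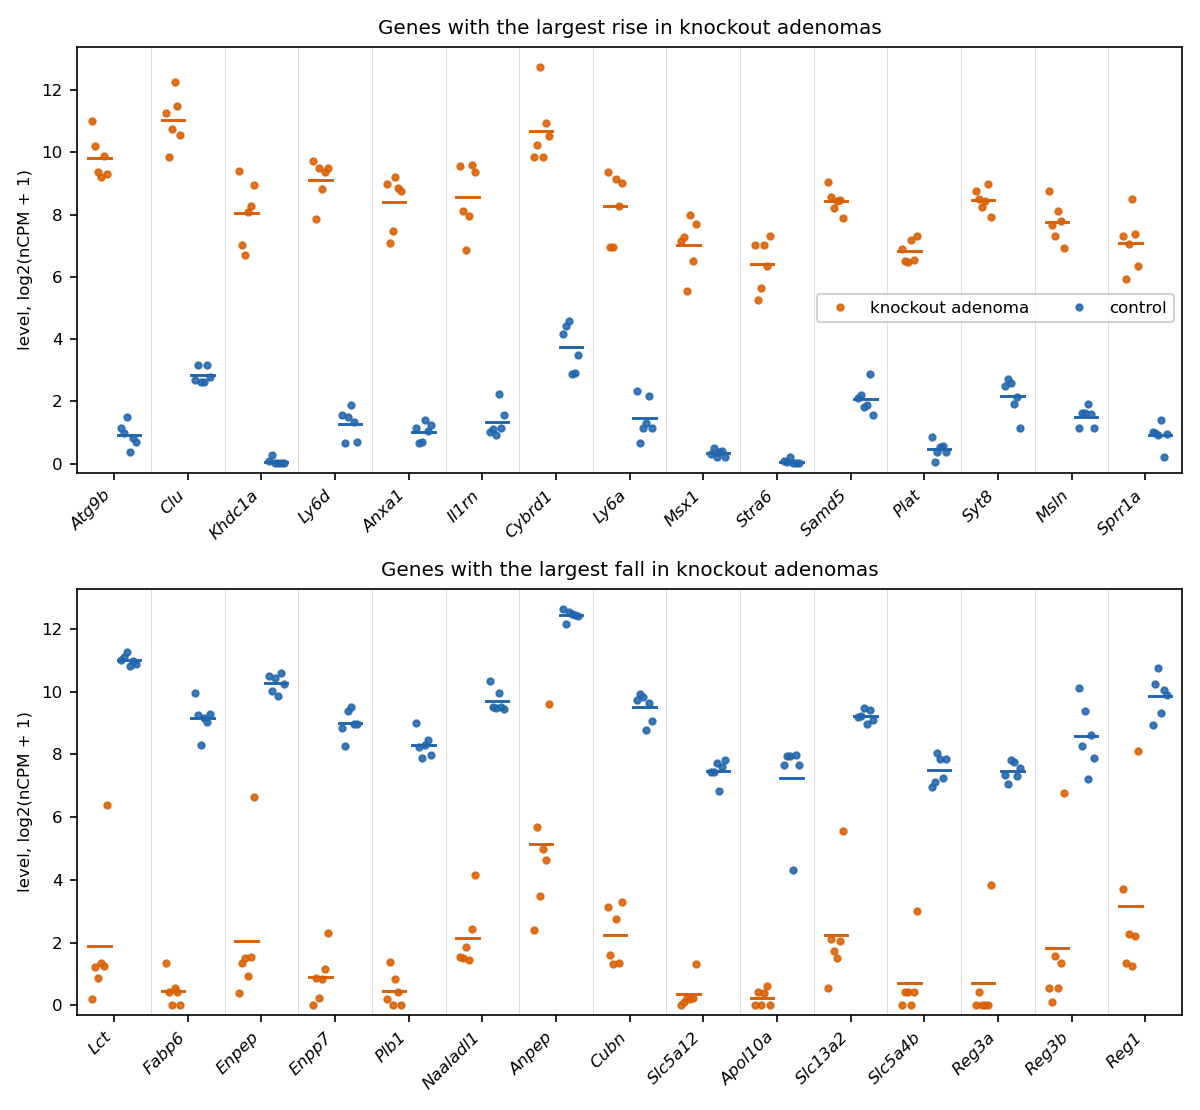
Level of the 30 genes with the largest differences, as log2(nCPM + 1) on the vertical axis, in 6 knockout adenomas (orange points) and 6 controls (blue points), with bars at the group means. The upper panel shows the 15 risers and the lower panel the 15 fallers, chosen among genes whose groups do not overlap. In the lower panel 1 adenoma often stands above the other 5.

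Promoter letters were read for these genes because Fosl1 encodes an AP-1 subunit. Bases 1 to 250 before the annotated start were taken from RefSeq (GRCm38.p6) for the 2 highest-ranked risers and fallers with an entry, and for Il1rn and Sprr1a, which were added after the search because they hold AP-1 letters. Capitals mark AP-1 letters TGANTCA in Il1rn and Sprr1a and TEAD letters GGAATG, here on the reverse strand, in Anxa1. The RefSeq start of Anxa1 lies inside the gene position given above, and so does its window. The 6 windows are at chr5:24392144-24392393 (minus strand, Atg9b), chr19:20390672-20390921 (minus, Anxa1), chr2:24336610-24336859 (plus, Il1rn), chr3:92485882-92486131 (minus, Sprr1a), chr1:128328319-128328568 (minus, Lct) and chr11:43601563-43601812 (minus, Fabp6).
Atg9b: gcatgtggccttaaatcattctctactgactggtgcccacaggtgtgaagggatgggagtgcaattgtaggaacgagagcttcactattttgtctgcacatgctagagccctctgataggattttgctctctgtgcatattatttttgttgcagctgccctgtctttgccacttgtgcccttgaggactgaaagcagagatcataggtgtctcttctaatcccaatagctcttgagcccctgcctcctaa
Anxa1: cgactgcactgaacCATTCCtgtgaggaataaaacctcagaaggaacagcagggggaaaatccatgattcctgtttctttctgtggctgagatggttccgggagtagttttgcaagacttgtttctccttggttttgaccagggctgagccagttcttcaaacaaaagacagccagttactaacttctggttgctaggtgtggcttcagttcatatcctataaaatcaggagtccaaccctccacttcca
Il1rn: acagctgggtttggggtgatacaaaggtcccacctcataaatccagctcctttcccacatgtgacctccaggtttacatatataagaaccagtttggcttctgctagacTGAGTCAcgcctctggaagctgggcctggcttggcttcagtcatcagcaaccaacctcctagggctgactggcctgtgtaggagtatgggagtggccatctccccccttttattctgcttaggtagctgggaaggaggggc
Sprr1a: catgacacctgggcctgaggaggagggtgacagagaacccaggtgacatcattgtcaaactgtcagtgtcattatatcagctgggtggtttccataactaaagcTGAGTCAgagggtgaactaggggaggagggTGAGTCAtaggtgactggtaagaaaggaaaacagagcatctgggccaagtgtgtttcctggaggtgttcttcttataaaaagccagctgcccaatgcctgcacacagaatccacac
Lct: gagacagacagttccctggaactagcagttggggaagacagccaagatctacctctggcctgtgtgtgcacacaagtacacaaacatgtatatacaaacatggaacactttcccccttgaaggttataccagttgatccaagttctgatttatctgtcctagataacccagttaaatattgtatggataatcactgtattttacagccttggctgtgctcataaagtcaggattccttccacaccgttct
Fabp6: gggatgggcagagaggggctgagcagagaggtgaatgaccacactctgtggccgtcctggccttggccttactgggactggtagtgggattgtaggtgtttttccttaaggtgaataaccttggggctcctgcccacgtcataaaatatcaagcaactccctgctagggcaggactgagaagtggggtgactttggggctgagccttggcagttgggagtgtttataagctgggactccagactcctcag
In Il1rn the AP-1 letters began 141 bases before the start of the printed promoter, 1 of 3 listed for that gene. In Sprr1a they occurred at 146 and 116 bases before the start. Of the 15 named risers, 9 had an entry and 4 of these held AP-1 letters on either strand, against 2 of 13 named fallers with an entry. Across all 10907 tested genes with an entry, 4.83% held the AP-1 letters. The share was 6.19% of 2035 genes that rose at least 2-fold and 6.94% of 1181 genes that fell at least 2-fold. TEAD letters stood in 11.9% of these risers, 13.3% of the fallers and 10.8% of all tested genes. TCF/LEF letters, CTTTGA, stood in 9.98% of the risers, 13.9% of the fallers and 11.3% of all tested genes. A match of letters is a description of the sequence and shows no binding.

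The strongest falls included enzymes and transporters of the mature absorptive epithelium. Lct, at chr1:128284756-128328318 on the minus strand, encodes lactase, which splits milk sugar at the brush border. It had 0.146, 1.36 and 82.1 nCPM in knockout adenomas, against 1814, 2024 and 2456 nCPM in controls, a log2 difference of -9.12 (SE 0.77, adjusted p = 1.41e-07). Knockout 7 held the 82.1 nCPM, still far below every control, and the other 5 adenomas had almost no Lct RNA. Fabp6, at chr11:43596049-43601540 on the minus strand, encodes the bile acid binding protein of the ileum. Its levels were 0, 0.341 and 1.57 nCPM in knockout adenomas, against 316, 589.8 and 989.9 nCPM in controls (log2 difference -8.70, adjusted p = 1.72e-15). All 6 adenomas, knockout 7 included, stood far below every control for Fabp6. In tissue RNA, fewer cells of a type and less RNA per cell cannot be told apart.

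The peptidases Anpep and Enpep, which trim peptides at the microvillus surface, fell in the same way. Anpep had 4.27, 27.2 and 776 nCPM in knockout adenomas, against 4569.5, 5615 and 6369.7 nCPM in controls. Enpep had 0.305, 1.71 and 98.9 nCPM in knockout adenomas, against 929, 1305 and 1537 nCPM in controls. For both genes knockout 7 was the highest adenoma. Enpp7, the alkaline sphingomyelinase, had a log2 difference of -8.08, Plb1, the brush border phospholipase B, of -7.84, and Naaladl1, an ileal peptidase, of -7.55. Cubn, the cobalamin and intrinsic factor receptor cubilin, had 1.51, 3.93 and 8.84 nCPM in knockout adenomas, against 441, 820.3 and 962 nCPM in controls. The solute carriers Slc5a12, for lactate, Slc13a2, for citrate and other dicarboxylates, and Slc5a4b fell (log2 differences -7.12, -6.97 and -6.80). Apol10a, an apolipoprotein L gene, fell by 7.01, and its range of 18.7, 223 and 251 nCPM in controls was wide because control 7 stood low.

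The Reg family of secreted C-type lectins, several of which kill or bind gut bacteria, had the lowest median of the lists described here. Of 5 tested members, 4 were lower and none was higher, with a median log2 difference of -6.71. Reg3b had 0.0834, 1.02 and 108 nCPM in knockout adenomas, against 148, 349 and 1112 nCPM in controls. Reg1 had 1.41, 3.75 and 273 nCPM in knockout adenomas, against 492, 1002 and 1718 nCPM in controls, and Reg3a 0, 0.00500 and 13.4 nCPM in knockout adenomas, against 132, 176 and 223 nCPM in controls. Knockout 7 was the highest adenoma for all 3 genes. Reg3b and Reg3g are close paralogs whose reads could be shared by counting.

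Lists of absorptive genes were lower as a rule. Of 18 brush border hydrolases 14 were lower and none was higher, with a median of -3.75. Mep1a, a subunit of the metallopeptidase meprin, had 1.41, 2.89 and 7.17 nCPM in knockout adenomas, against 224, 250.3 and 433 nCPM in controls. Sucrase-isomaltase, Sis, spread over more than 3 orders of magnitude among adenomas, with 0.305, 42.4 and 492 nCPM in knockout adenomas, against 2241, 2649 and 3017 nCPM in controls. Structural genes of the microvillus fell less deeply, 12 of 16 lower with a median of -1.17. Myo1a, the brush border myosin, fell by 2.23, and Baiap2l1, an actin regulator and the single riser of that list, rose by 1.18. Dietary fat absorption had 16 of 21 members lower and none higher (median -2.61), and 7 lower with the fraction term. Npc1l1, the cholesterol importer, had 5.54, 55.7 and 112 nCPM in knockout adenomas, against 782, 947 and 1139 nCPM in controls. Apoa4, a chylomicron apolipoprotein, had 1.89, 271 and 952 nCPM in knockout adenomas, against 1296, 2252 and 3852 nCPM in controls, and knockout 1 stood lowest. Its adjusted p was 0.0221.

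Nutrient transporters had 15 of 21 members lower and 1 higher, with a median of -3.79. Slc34a2, a phosphate importer, had 0, 0.173 and 1.51 nCPM in knockout adenomas, against 55.3, 61.6 and 183 nCPM in controls. Slc1a1, the glutamate importer, fell by 4.02, and the riser was Slc16a1, the monocarboxylate transporter MCT1 (0.79). Cytochrome P450 and retinol genes had 21 of 26 members lower and none higher (median -2.67), and 13 lower with the fraction term. Aldh1a1, which makes retinoic acid, had 2.53, 11.7 and 89.8 nCPM in knockout adenomas, against 376, 580.5 and 762 nCPM in controls. Ces1g, a carboxylesterase, fell by 3.66.

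Regional genes did not move as a block. All 9 ileal genes for bile acid and cobalamin uptake were lower (median -3.82), among them Slc51b, a bile acid exporter, with 0, 1.46 and 6.70 nCPM in knockout adenomas, against 35.6, 47.9 and 59.3 nCPM in controls. Of 11 genes of the proximal intestine 3 were higher and 3 lower, with 5 lower without Braf 7, 6 without knockout 3 or after trimmed-mean rescaling, and 1 with the fraction term. Pdx1, the duodenal and pancreatic homeobox factor, had 30.1, 72.01 and 76.4 nCPM in knockout adenomas, against 10.8, 15.5 and 21.5 nCPM in controls. Onecut2, another factor of the duodenum, rose by 2.18, while Gata4, which specifies jejunum, fell by 1.5. Of 6 colon and caecum genes 4 were lower and 1 was higher. Car4, a carbonic anhydrase of the colonic surface, had 0, 1.46 and 2.58 nCPM in knockout adenomas, against 121, 201 and 253 nCPM in controls. Whether the 2 groups were sampled at the same site was not given.

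Transcription factors of intestinal identity went both ways, 6 of 23 higher and 12 lower. Cdx2, the master factor of the intestine, had 49.4, 93.7 and 113 nCPM in knockout adenomas, against 134, 145 and 195 nCPM in controls. Hnf4g, which sustains enterocyte genes, had 8.55, 17.04 and 38.5 nCPM in knockout adenomas, against 129.8, 142 and 165 nCPM in controls. Both factors were lower in every adenoma than in any control. Ppargc1a, a coactivator of mitochondrial biogenesis, fell by 3.12. Risers were Prdm1, a repressor typical of the suckling gut, at 1.55, Klf5, a crypt factor, at 0.97, Foxa3 at 1.95 and Tcf7l2, the main TCF of the gut, at 0.88.

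Genes of oxidative metabolism were mostly lower. Fatty acid oxidation had 16 of 18 members lower and 1 higher (median -0.94), with Hadh at 99.5, 155 and 390.3 nCPM in knockout adenomas, against 609, 685 and 754 nCPM in controls. The call of the single riser was lost without control 5, knockout 1 or knockout 5. Nuclear-encoded subunits of the respiratory chain had 13 of 23 members lower and none higher (median -0.61), which became 21 lower after trimmed-mean rescaling and 19 with the fraction term, and Atp5b fell by 1.12. Among 13 mitochondrially encoded genes 1 was lower, which became 4 without knockout 2 and 0 without control 4, control 5, knockout 5, knockout 6 or knockout 7. The median of these 13 genes, -0.31, turned to 0.48 with the fraction term. Glycolysis was mixed, with 5 of 22 members higher and 4 lower, or 7 lower after trimmed-mean rescaling. Slc2a1, the glucose importer GLUT1, had 35.04, 97.2 and 143 nCPM in knockout adenomas, against 2.93, 8.28 and 12.8 nCPM in controls. Hk1, a hexokinase, rose by 3.50, and Pfkp, a phosphofructokinase, fell by 1.35. Cholesterol synthesis had 17 of 21 members higher and 1 lower (median 1.02), with Cyp51 at 1.98 and Fdft1 at 1.88, and the exception was Stard4, a sterol carrier, which fell by 0.81.

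Secretory lineages differed from each other. Goblet cell genes, which make mucus, had 5 of 18 members higher and 2 lower, below the share of all genes that were higher, and 3 higher without control 4 or knockout 1, after trimmed-mean rescaling or with the fraction term. Fut2, which fucosylates mucus, had 24.7, 39.8 and 57.95 nCPM in knockout adenomas, against 0.926, 2.44 and 3.13 nCPM in controls, while Muc13, a surface mucin, fell by 1.32. Paneth cell genes, the antimicrobial products of the crypt base, had 12 of 16 members lower and 4 higher (median -2.85). The alpha-defensin Defa21 had 0, 0.127 and 0.349 nCPM in knockout adenomas, against 17.1, 25.7 and 50.6 nCPM in controls; defensin genes are near-identical copies among which reads could be split. Pla2g2a, a bactericidal phospholipase of the same cells, went the other way, with 172, 189 and 386 nCPM in knockout adenomas, against 3.34, 7.26 and 12.9 nCPM in controls. Mmp7, the protease that activates defensins in mouse, also rose, by 3.08, as did Lyz2 and Nupr1, by 2.41 and 1.76. Lyz2 is the lysozyme of macrophages and also a member of that list, in which 9 of 12 members were higher; the part of macrophage RNA in its level was not tested.

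Hormone and tuft cell genes were mostly lower. Enteroendocrine genes had 15 of 20 members lower and 1 higher (median -1.43), and 8 lower with the fraction term. Chga, chromogranin A of hormone granules, had 1.34, 3.51 and 5.06 nCPM in knockout adenomas, against 30.6, 34.7 and 58.4 nCPM in controls. Nts and Gcg, the distal hormones neurotensin and proglucagon, fell (log2 differences -4.37 and -3.02), and Pcsk1, a prohormone convertase, rose by 2.15. Of 10 tuft cell genes 6 were lower and 1 was higher. Pou2f3, the factor that makes tuft cells, fell by 1.26, and Avil, the actin binding protein advillin, had 56.7, 149 and 251 nCPM in knockout adenomas, against 4.66, 8.47 and 15.8 nCPM in controls.

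Most members of the crypt and Wnt lists were higher. Of 19 crypt stem cell markers 15 were higher and 2 lower (median 1.87). Sox9, a factor of the crypt base, had 262, 306 and 383 nCPM in knockout adenomas, against 14.4, 20.01 and 21.5 nCPM in controls. Cd44, a hyaluronan receptor and Wnt target, had 462, 552 and 793 nCPM in knockout adenomas, against 8.10, 16.8 and 20.96 nCPM in controls. Ephb3, which keeps cells in the crypt, rose by 3.89. Olfm4, a marker of active stem cells, was the opposite, with 0.463, 9.57 and 24.98 nCPM in knockout adenomas, against 106, 217 and 462 nCPM in controls; the other faller lost its call when single libraries were left out. Lgr5, the receptor that defines crypt base stem cells, was named after its values were seen; it did not pass the threshold (-1.44, adjusted p = 0.157; without knockout 3, -2.0, adjusted p = 0.0344) and ranged over 0, 1.000 and 17.1 nCPM in knockout adenomas, against 2.91, 6.89 and 7.78 nCPM in controls.

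Wnt targets and feedback inhibitors had 18 of 23 members higher and 1 lower (median 1.83). Notum, the enzyme that inactivates Wnt ligands, had 55.9, 84.9 and 149.7 nCPM in knockout adenomas, against 0.915, 1.11 and 2.07 nCPM in controls. Nkd1, an inhibitor induced by the pathway itself, had 50.7, 102 and 149 nCPM in knockout adenomas, against 0.242, 0.540 and 1.92 nCPM in controls. Both were near the floor of detection in controls and clearly expressed in all adenomas. Tnfrsf19 rose by 4.88, and the single faller was Wnt6, a ligand, at -1.48.

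Fetal and regenerative markers had 23 of 27 members higher and none lower, with a median of 3.69. S100a6, a calcium binding protein of the regenerating crypt, had 2294, 2914 and 4697 nCPM in knockout adenomas, against 32.4, 55.1 and 99.6 nCPM in controls. Krt7, a keratin of simple ductal epithelium, had 623, 1061 and 2109 nCPM in knockout adenomas, against 41.6, 61.5 and 68.03 nCPM in controls. Ecm1, an extracellular matrix protein, rose by 4.76. Gastric markers had 16 of 19 members higher and 1 lower (median 3.64). Ctse, the gastric protease cathepsin E, had 274, 1156 and 1596 nCPM in knockout adenomas, against 8.71, 11.1 and 30.99 nCPM in controls, and Anxa10, annexin A10 of the gastric surface, 252, 610.5 and 1004 nCPM in knockout adenomas, against 5.46, 7.98 and 19.8 nCPM in controls. Tff2, the trefoil peptide of mucous neck cells, rose by 4.89 and was lowest in knockout 7.

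**Figure D2:**
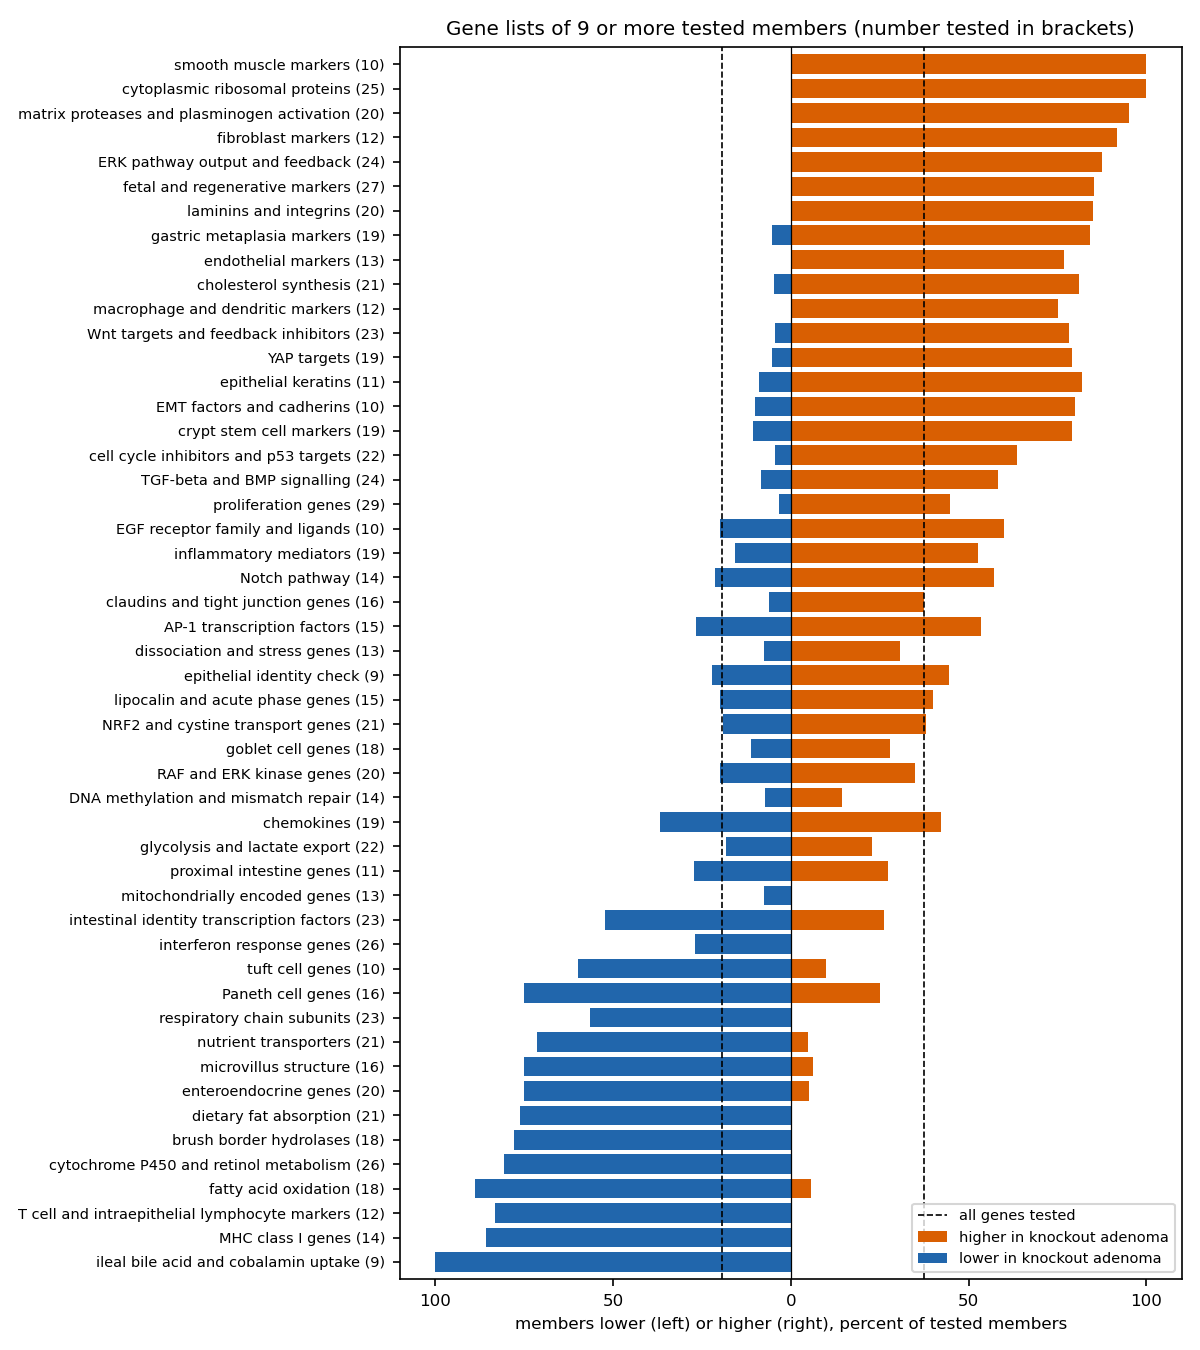
Percent of tested members of each gene list that were higher (orange, to the right) or lower (blue, to the left) in knockout adenomas than in controls at an adjusted p below 0.05. Dashed lines give the shares over all 14806 genes, 37.4% higher and 19.4% lower; fetal, gastric, Wnt and ribosomal protein lists lie far to the right and absorptive lists far to the left.

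Genes of ERK pathway output were mostly higher in the knockout adenomas. Of 24 genes of its transcriptional output and feedback, 21 were higher and none lower, with a median of 2.09. Etv4, a transcription factor induced by ERK, had 66.1, 89.4 and 185 nCPM in knockout adenomas, against 2.55, 3.41 and 6.65 nCPM in controls. Phlda1, another target, had 266, 337 and 386 nCPM in knockout adenomas, against 4.70, 8.32 and 17.5 nCPM in controls. Ier3 and Egr1, immediate early genes, rose by 3.34 and 2.33. The EGF receptor and its ligands had 6 of 10 members higher and 2 lower. Areg, the ligand amphiregulin, had 75.1, 80.7 and 109.7 nCPM in knockout adenomas, against 4.70, 6.95 and 7.91 nCPM in controls, and Btc, betacellulin, and Egfr, the receptor, rose by 4.13 and 2.84. Nrg4, a ligand of ERBB4, fell by 2.80, and the other faller lost its call without control 5 or knockout 1 and with the fraction term. Kinases and RAS proteins of the pathway had 7 of 20 members higher and 4 lower, a share of risers close to that of all genes. Ksr1, a scaffold of the cascade, fell by 1.65, while Rras rose by 2.28.

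Other AP-1 genes moved in both directions. Of 15 tested members 8 were higher and 4 lower (median 0.74), with 2 lower under the fraction term. Jund, a JUN partner, had 92.2, 104 and 109 nCPM in knockout adenomas, against 49.4, 54.99 and 68.6 nCPM in controls. Maff, a small MAF protein, rose by 1.85, and Jun and Junb rose by 0.91 and 0.87. The closest relative of Fosl1, Fosl2, was named after its values were seen, as were Fos and Junb. Fosl2 had 115, 190.3 and 279 nCPM in knockout adenomas, against 129.96, 146 and 179.6 nCPM in controls, a log2 difference of 0.24 that did not pass the threshold (adjusted p = 0.259, 95% interval -0.13 to 0.62). Fos did not pass it either (log2 difference 0.45, adjusted p = 0.312). Batf2, a BATF family factor, fell (log2 difference -0.98). Among the fallers, 2 lost their calls without control 4, control 5, knockout 1, knockout 2 or knockout 5.

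YAP targets and genes of TGF-beta, BMP and Notch signalling were higher in part. YAP targets had 15 of 19 members higher and 1 lower (median 1.94). Tnfrsf12a, the TWEAK receptor, had 71.3, 185 and 202 nCPM in knockout adenomas, against 5.04, 8.09 and 12.3 nCPM in controls. Wwtr1, the YAP paralog TAZ, rose by 3.81, and Birc3, an inhibitor of apoptosis, was the faller at -0.56. TGF-beta and BMP genes had 14 of 24 members higher and 2 lower. Tgfbr2, the type II receptor, had 102, 146 and 243 nCPM in knockout adenomas, against 2.74, 7.00 and 14.2 nCPM in controls. Inhba, a subunit of activin, rose by 3.58 and had no count in 5 of the 6 controls, while Smad4, the shared mediator, fell by 0.71 and Tgfbi fell by 2.77. Notch genes had 8 of 14 members higher and 3 lower. Hes1, the main effector, and Jag2, a ligand, rose by 1.46 and 3.26, and the ligands Dll1 and Dll4 fell (log2 differences -2.11 and -1.13), with Nrarp, a feedback inhibitor, at -1.19.

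Cell cycle genes and cell cycle inhibitors were both higher in part. Proliferation genes had 13 of 29 members higher and 1 lower (median 0.51), not far above the 37.4% of all genes. Rrm2, a subunit of ribonucleotide reductase, had 32.6, 96.95 and 105 nCPM in knockout adenomas, against 7.72, 18.5 and 30.9 nCPM in controls, and Cdk1 rose by 1.24. The direction of this list depends on the fit, since with the fraction term 1 member was higher, 3 were lower and the median was -0.19. Cell cycle inhibitors and p53 targets had 14 of 22 members higher and 1 lower (median 0.90), with 3 lower after trimmed-mean rescaling and 2 with the fraction term. Cdkn2a, which encodes p16 and ARF, had 28.5, 40.8 and 111 nCPM in knockout adenomas, against 0.0337, 0.308 and 0.467 nCPM in controls. Phlda3, a p53 target that restrains AKT, had 34.9, 83.1 and 105 nCPM in knockout adenomas, against 0.243, 0.742 and 1.08 nCPM in controls. Both were barely detected in controls and present in every adenoma. Sesn1, a stress sensor, was the faller, at -3.46.

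Matrix proteases, laminins and integrins were mostly higher. Matrix proteases and plasminogen activation had 19 of 20 members higher and none lower (median 1.71). Plaur, the urokinase receptor, had 53.9, 133 and 219.8 nCPM in knockout adenomas, against 0.242, 1.22 and 1.90 nCPM in controls. Mmp14, a membrane metalloprotease, and Mmp15 rose by 2.53 and 2.19. Laminins and integrins had 17 of 20 members higher and none lower (median 1.58), with 11 higher under the fraction term and 2 lower after trimmed-mean rescaling. Lama5, the alpha chain of a basement membrane laminin, had 118, 149 and 254 nCPM in knockout adenomas, against 2.35, 3.22 and 7.29 nCPM in controls, and rose by 5.05. Of 10 EMT factors and cadherins 8 were higher and 1 lower, among them both Cdh1 and Grhl2, which maintain epithelium, and Fn1, the fibronectin of mesenchyme (3.72); Ovol1 fell by 1.09. Of 11 epithelial keratins 9 were higher and 1 lower, and 5 higher with the fraction term. Krt18 had 2419, 2821 and 4316 nCPM in knockout adenomas, against 119, 175 and 251 nCPM in controls, Krt23 rose by 5.45, and the call of the single faller was lost when any of 7 libraries was left out. Among 16 claudins and tight junction genes 6 were higher, a share like that of all genes, and 1 lower, or 3 lower after trimmed-mean rescaling, with Cldn4 at 2.83 and Cldn15, the pore of the small intestine, at -2.62.

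Markers of stromal cells moved with these matrix genes. All 10 smooth muscle markers were higher (median 3.95), and their summed level was 47.2, 288 and 693 nCPM in knockout adenomas, against 10.1, 15.3 and 22.5 nCPM in controls. Des, the desmin of muscle, had 9.33, 87.1 and 215 nCPM in knockout adenomas, against 0.152, 0.581 and 1.01 nCPM in controls. Fibroblast markers had 11 of 12 members higher and none lower, with a summed level of 68.7, 167 and 314 nCPM in knockout adenomas, against 15.2, 18.6 and 24.1 nCPM in controls. Col1a1 rose by 3.92. Endothelial markers had 10 of 13 members higher and none lower, with a summed level of 20.5, 89.6 and 115 nCPM in knockout adenomas, against 8.25, 13.8 and 14.7 nCPM in controls. Enteric neuron and glia markers had 5 of 6 members higher, led by S100b at 3.71, and 3 without control 4, control 5, knockout 2, knockout 5 or knockout 6. With the fraction term 6 fibroblast, 6 endothelial and 1 of the neuron and glia markers were higher. The summed levels of these 4 lists did not overlap between groups. The part of stromal RNA in the matrix, TGF-beta and mesenchymal results was not tested.

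**Figure D3:**
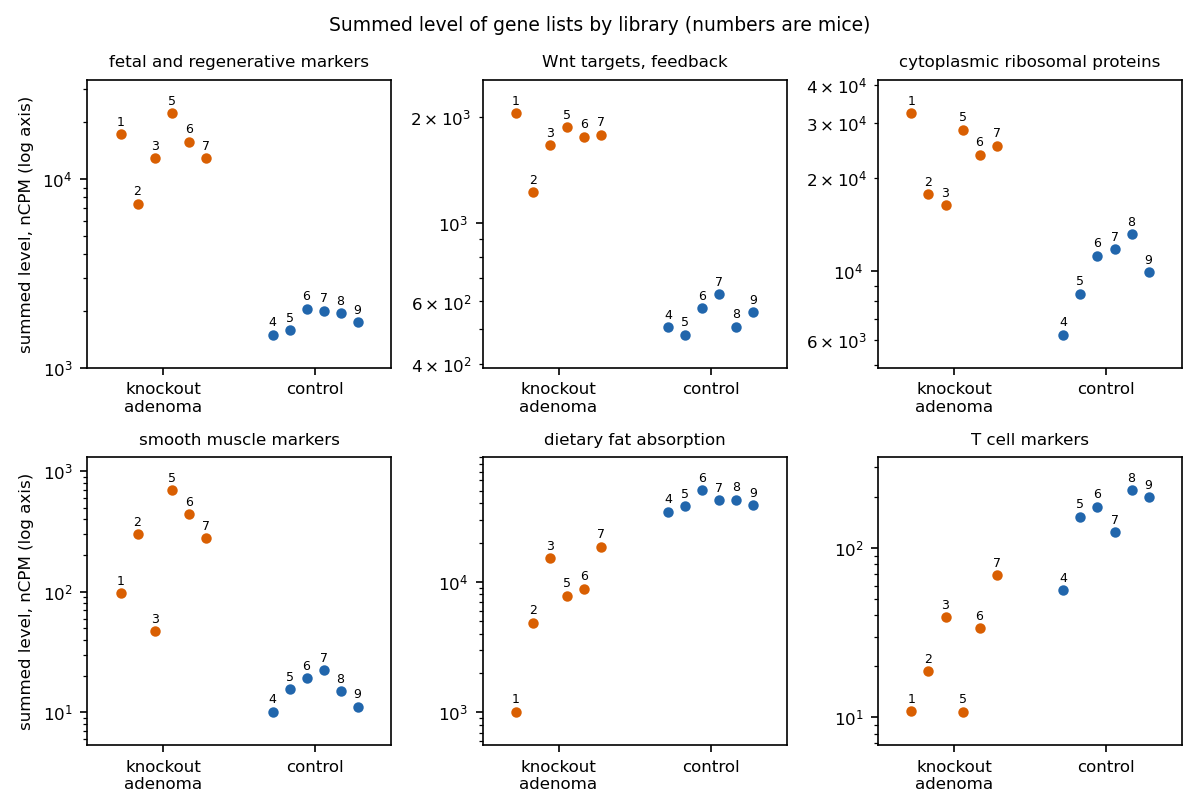
Summed level of 6 gene lists in each of the 12 libraries, in nCPM on log axes, for knockout adenomas (orange, numbered by mouse) and controls (blue). Fat absorption and T cell sums are mostly lower in adenomas and the other sums higher, with overlap for the T cell markers only and knockout 7 the highest adenoma for T cell and fat absorption genes.

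Immune genes split by cell type. Markers of T cells and intraepithelial lymphocytes had 10 of 12 members lower and none higher, with a summed level of 10.8, 26.2 and 69.0 nCPM in knockout adenomas, against 56.2, 164 and 219 nCPM in controls. Cd3e, a chain of the T cell receptor complex, had 0.146, 0.433 and 1.67 nCPM in knockout adenomas, against 1.71, 5.11 and 7.23 nCPM in controls. Macrophage and dendritic markers had 9 of 12 members higher and none lower, with a summed level of 46.7, 122 and 154 nCPM in knockout adenomas, against 22.7, 26.9 and 40.2 nCPM in controls. C1qa, a complement chain of resident macrophages, rose by 2.16. Mucosal mast cell proteases rose, Mcpt2 with 33.9, 170.2 and 399 nCPM in knockout adenomas, against 0.160, 0.854 and 1.71 nCPM in controls, whereas Kit, the mast cell growth factor receptor, and Siglecf, of eosinophils, fell (log2 differences -1.48 and -1.38). With the fraction term 5 macrophage and dendritic markers were higher and 0 neutrophil markers. Neutrophil markers had 2 of 3 members higher at a summed level of 2.19, 2.62 and 5.07 nCPM in knockout adenomas, against 0.158, 0.391 and 1.04 nCPM in controls. Of 5 B and plasma cell markers 1 was higher, and its call was lost without control 7, control 9, knockout 3, knockout 6 or knockout 7 and with the fraction term.

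Genes of antigen presentation were mostly lower in the adenomas. MHC class I genes had 12 of 14 members lower and none higher (median -1.73). B2m, the light chain of class I, had 169, 246 and 696 nCPM in knockout adenomas, against 1093, 1472 and 1800.2 nCPM in controls. Tap2, a peptide transporter, and Psmb10, an immunoproteasome subunit, fell (log2 differences -1.67 and -1.79). All 6 adenomas were below all controls for these 3 genes. Class II genes had 3 of 8 members lower and none higher, with Ctss at -1.48, and 7 of 8 lower without control 7, which stood high, 6 after trimmed-mean rescaling and 1 with the fraction term. Interferon response genes had 7 of 26 members lower and none higher (median -0.33), and 4 lower without control 4, control 8 or knockout 5, 2 with the fraction term and 10 after trimmed-mean rescaling. Among the fallers was Irf1, which activates class I genes, with 42.5, 72.5 and 98.8 nCPM in knockout adenomas, against 149.6, 177 and 267 nCPM in controls. T cell markers were lower in the same libraries, and their part in these differences was not tested.

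Inflammatory mediators, chemokines and acute phase genes were mixed. Inflammatory mediators had 10 of 19 members higher and 3 lower, or 5 lower after trimmed-mean rescaling. Tnfrsf11b, the decoy receptor osteoprotegerin, had 25.9, 106 and 228 nCPM in knockout adenomas, against 0.221, 0.303 and 0.612 nCPM in controls. Tnf and Il1a rose by 2.40 and 2.13, and Il18, Nos2 and Tnfaip3 fell (log2 differences -1.44, -3.60 and -1.33). Of 19 chemokines 8 were higher and 7 lower, and 5 higher with the fraction term. Cxcl16 rose by 2.06, and Ccl25, which draws lymphocytes to the small intestine, had 131, 178 and 302 nCPM in knockout adenomas, against 686, 707 and 803 nCPM in controls. Ccl28 and Ccl5 fell (log2 differences -2.91 and -2.59). Of 15 lipocalin and acute phase genes 6 were higher and 3 lower. S100a11 had 655, 873 and 1542 nCPM in knockout adenomas, against 29.4, 37.8 and 52.7 nCPM in controls, and Pigr, which carries IgA across the epithelium, 167, 460.1 and 2131 nCPM in knockout adenomas, against 2529, 3040.3 and 3295 nCPM in controls.

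Redox genes and the translation machinery completed the lists. NRF2 and cystine transport genes had 8 of 21 members higher and 4 lower, close to the shares of all genes, with 2 lower without control 9, 9 lower after trimmed-mean rescaling and 5 higher with the fraction term. Slc7a11, the cystine importer, had 38.6, 66.6 and 185 nCPM in knockout adenomas, against 0.158, 0.421 and 0.612 nCPM in controls, and Hmox1, haem oxygenase, rose by 4.25. Nfe2l2, the factor itself, fell by 0.85. All 25 cytoplasmic ribosomal protein genes were higher (median 1.25), and 24 stayed so after rescaling by trimmed means. With the fraction term 12 of the 25 passed. Rpl7 had 1136, 1515 and 2240.3 nCPM in knockout adenomas, against 272, 443 and 539.9 nCPM in controls. DNA methylation and mismatch repair had 2 of 14 members higher, Mlh3 and Dnmt3b at 1.49 and 0.79, and 1 lower, Dnmt3a at -0.72. After trimmed-mean rescaling 7 of the 14 were lower. Dissociation and stress genes had 4 of 13 members higher and 1 lower, and of 5 red blood cell markers none passed the threshold. Of 2 pancreatic acinar markers Cela1 rose by 2.44. Of 4 adipocyte and mesothelial markers Fabp4 and Msln rose and Upk3b fell by 1.08.

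Knockout adenomas varied among themselves more than controls. Correlations among Braf adenomas, 0.9085 to 0.9621, lay in a range like that among knockout adenomas, 0.9036 to 0.9722. The median SD of log2(nCPM + 1) was 0.42 over knockout adenomas and 0.27 over controls, and 78.8% of genes had the larger SD in the adenomas. Knockout 7 was the adenoma nearest to the controls, with a median correlation of 0.8803, and knockout 1 the farthest, at 0.7420. Among the genes of largest spread, Ada, adenosine deaminase, had 23, 2094 and 6540.5 nCPM in knockout adenomas, against 253, 368 and 667 nCPM in controls, with knockout 1 far below the others. Slc13a1, a sulphate importer, ranged over 1.26, 127 and 412 nCPM in knockout adenomas, against 124, 232 and 283 nCPM in controls, and the groups overlapped. Retnlb, a goblet cell peptide, had 0, 9.68 and 68.8 nCPM in knockout adenomas, against 9.43, 14.1 and 28.9 nCPM in controls. Other genes of large spread were Xist, Eif2s3y and Ddx3y, sex-linked genes that were high in some mice and near 0 in others in both groups, and Eno1b, a copy of an enolase gene.

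Against Braf adenomas the same knockout adenomas differed in few genes, in this table and at this number of libraries. Of the 14806 genes 7 (0.0473%) were higher and 55 (0.371%) lower in knockout adenomas at an adjusted p below 0.05. At an unadjusted p below 0.05 there were 294 higher and 1850 lower genes. Knockout and Braf adenomas correlated at 0.8901 to 0.9706. Clu had 929, 2113 and 4966 nCPM in knockout adenomas, against 2319.9, 4982 and 8982 nCPM in Braf adenomas, a log2 difference of -1.03 that did not pass the threshold (adjusted p = 0.225, 95% interval -1.84 to -0.23). Lct had 0.146, 1.36 and 82.1 nCPM in knockout adenomas, against 0.252, 1.41 and 2.07 nCPM in Braf adenomas, both far from controls.

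Gstp2, at chr19:4040285-4046023 on the minus strand, a glutathione transferase, was the clearest gene higher in knockout than in Braf adenomas. It had 31.6, 43.97 and 72.3 nCPM in knockout adenomas, against 5.03, 7.26 and 8.96 nCPM in Braf adenomas (log2 difference 2.54, adjusted p = 1.87e-06). In controls it had 8.27, 11.7 and 15.6 nCPM. Fosl1, floxed in the knockout mice only, lies on the same chromosome as Gstp2. Positions of the genes named below, and whether any of them lies on that chromosome, are not given here. Whether the difference of Gstp2, or of the genes named below, depends on loss of Fosl1 was not tested. Its near-identical neighbour Gstp1, named after its values were seen, had 98.6, 155 and 209 nCPM in knockout adenomas, against 148, 318 and 346 nCPM in Braf adenomas, and counting could split reads between both. Gulo, the last enzyme of vitamin C synthesis in the mouse, had 12.9, 28.5 and 68.95 nCPM in knockout adenomas, against 1.84, 8.91 and 12.7 nCPM in Braf adenomas. Chka, choline kinase, had 69.7, 134 and 248 nCPM in knockout adenomas, against 41.7, 49.4 and 67.8 nCPM in Braf adenomas and 119.96, 153 and 238 nCPM in controls, so knockout and control levels overlapped. Mup20, a major urinary protein of a multigene family, had 1.10, 6.34 and 9.79 nCPM in knockout adenomas, against 0.165, 0.476 and 0.959 nCPM in Braf adenomas.

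Genes lower in knockout than in Braf adenomas included products of innate defence. Lcn2, the iron-sequestering lipocalin, had 0.291, 1.34 and 3.65 nCPM in knockout adenomas, against 5.18, 7.39 and 18.6 nCPM in Braf adenomas (log2 difference -1.96, adjusted p = 0.0129). Ltf, lactoferrin, had 0.338, 1.31 and 2.66 nCPM in knockout adenomas, against 4.51, 9.85 and 101 nCPM in Braf adenomas. Gbp2, an interferon-induced GTPase, had 1.25, 2.77 and 4.04 nCPM in knockout adenomas, against 6.41, 13.1 and 92.4 nCPM in Braf adenomas. For each of these 3 genes the highest knockout adenoma was below the lowest Braf adenoma, which the rule for naming genes required. Sting1, the sensor of cyclic dinucleotides, had 2.68, 5.27 and 8.04 nCPM in knockout adenomas, against 10.3, 23.2 and 26.2 nCPM in Braf adenomas. Plet1, a surface protein of regenerating colon in mouse, had 0.677, 3.34 and 6.64 nCPM in knockout adenomas, against 9.80, 32.96 and 168 nCPM in Braf adenomas. Both were detected in every adenoma of either genotype. Angptl2, a secreted angiopoietin-like protein, differed by -1.88, Slc28a3, a nucleoside importer, by -1.85, and Zbed3, an axin-binding protein, by -2.02. Leaving out single libraries moved the counts against Braf adenomas between 3 and 14 higher and between 12 and 127 lower, and a fit of the 2 groups alone left 1 gene in each direction.

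**Figure D4:**
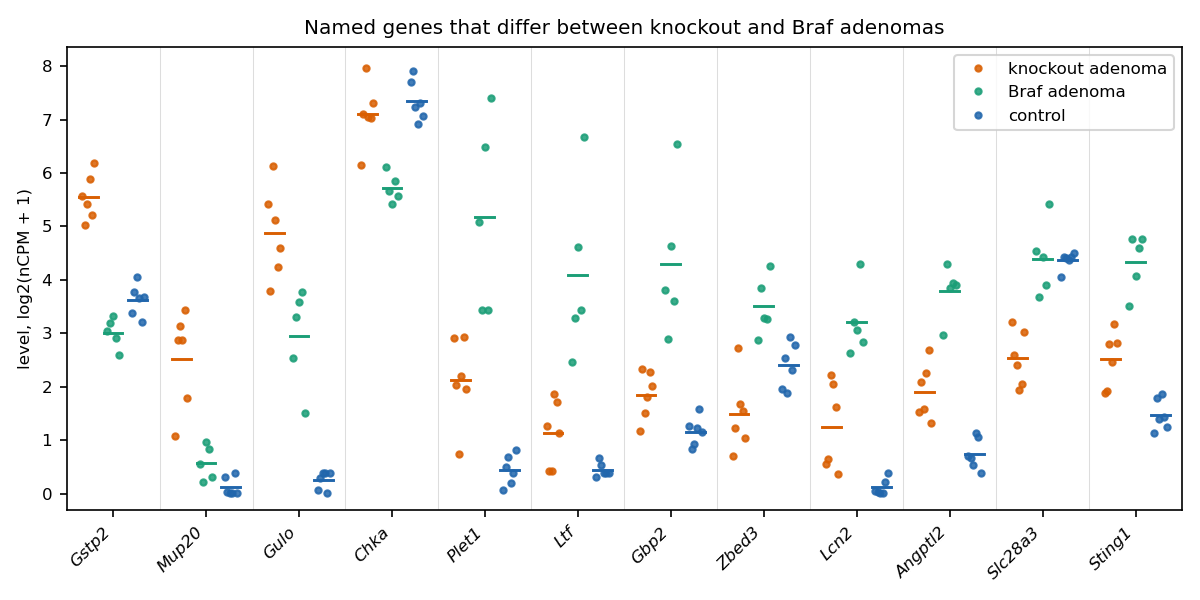
Level of the 12 named genes that differed between knockout and Braf adenomas, as log2(nCPM + 1), in 6 knockout adenomas (orange), 5 Braf adenomas (green) and 6 controls (blue), with bars at the group means. Gstp2, Gulo, Mup20 and Chka stand higher in knockout than in Braf adenomas, and the other 8 genes lower. Genes were named only where these 2 groups did not overlap.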

How the data were processed

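RNA of mouse intestinal tissue was sequenced. The kit was TruSeq v2 or a stranded one that removes ribosomal RNA, and which library had which kit is not given in the labels. Per the submitters' processing notes, fastp, STAR, limma and GRCm38 were used; versions, the counting step and the normalisation method are not given in the sources used here. Per the file headers, the deposited table holds normalised counts, a signal scaled so that every column sums to about the same total, 6307850.1 in the mean. Read counts were not recovered, so depth is an estimate from the steps between low values.

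Each value was multiplied by 0.158533 to give nCPM, which sets the mean library to a total of 1000000. A duplicate row was dropped, and genes with at least 1 nCPM in at least 5 libraries were kept. limma 3.58.1 (R 4.3.3) was fitted to log2(nCPM + 1) with trended, robust variances over 6 knockout, 6 control and 5 Braf libraries, and p-values were adjusted over all 14806 genes by the Benjamini-Hochberg method with a threshold of 0.05. A log2 difference on this scale understates the change of low genes. Positions are from GENCODE M21, which matched 14800 tested genes, and promoter sequences from RefSeq.

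Members and lists were chosen with earlier results of these data known. Genes named are the 15 largest called differences in each direction with at least 5 nCPM as the mean of the higher group and groups that do not overlap, predicted genes and receptor segments left out, then list members with the smallest adjusted p or called against their list, up to 8 genes per direction against Braf adenomas under the same rules, and the 10 genes of largest spread among adenomas. Some list members of this rule are left out because single libraries decided their call, and some others are not reported here. Titles number the knockout mice and the control tissues, and each library was taken to come from a separate mouse. No test was run on summed marker levels. Alternatives were other pseudocounts, filters, rescalings, weights, samples, a replicate block, a term for fractions in place of zeros and leaving out libraries.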

Additional observations from a re-analysis of the deposited data

Results flagged for a closer look

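A library was set apart where its log2 level stood away from the rest of its group by more than Dixon's 95% critical value. This was so in 43 of 390 groups of 6 or 5 libraries for the genes named. Chance sets apart about 1 in 20 groups when groups are independent and not selected. Here the groups share libraries, and some genes were named for their large spread, so no excess can be read from these numbers. No cause was tested.

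Knockout 7 stood above the other 5 adenomas in genes that controls express strongly. It held 82.1 nCPM of Lct with the next adenoma at 1.56, 98.9 nCPM of Enpep with the next at 1.92, and 16.9 nCPM of Naaladl1 with the next at 4.37. The same adenoma held 272.6 nCPM of Reg1, 13.4 nCPM of Reg3a and 108.3 nCPM of Reg3b. It was also high for the transporters Slc13a2 (46.1 nCPM), Slc5a12 (1.51 nCPM) and Slc5a4b (7.01 nCPM), for Ppargc1a (22.9 nCPM), for the hormone gene Nts (1.51 nCPM) and for Nos2 (6.86 nCPM). It was low for the gastric peptide Tff2, with 90.7 nCPM against 378.9 nCPM in the next adenoma. Its levels of the absorptive genes still lay below all controls.

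Knockout 1 was low for 3 absorptive or surface genes, with 23 nCPM of Ada, 1.89 nCPM of Apoa4 and 1.26 nCPM of Slc13a1. All 3 were among the genes named for their large spread over these adenomas, so an outlying adenoma follows in part from the choice. Knockout 1 was high for Cdkn2a, with 110.9 nCPM, and for Lama5, with 254.1 nCPM. Knockout 2, the adenoma with the largest mitochondrial share, was low for 9 genes that rose in the group. These were Btc (27.4 nCPM), C1qa (3.07 nCPM), Fabp4 (1.83 nCPM), Ier3 (41.2 nCPM), Inhba (3.05 nCPM), Krt23 (169 nCPM), Lyz2 (2.34 nCPM), Rrm2 (32.6 nCPM) and Tnfrsf12a (71.3 nCPM).

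Among controls, control 4 was low for Gcg (3.19 nCPM), Lgr5 (2.91 nCPM), Slc28a3 (15.7 nCPM) and Slc2a1 (2.93 nCPM) and high for Mep1a (433.2 nCPM) and Slc34a2 (183.5 nCPM). Control 5 was high for Khdc1a (0.221 nCPM). Control 6 was high for Ctse (31.0 nCPM), Pfkp (350.6 nCPM) and Stra6 (0.158 nCPM). Control 7 was low for Apol10a (18.7 nCPM) and Slc5a12 (113.2 nCPM). Control 9 was high for Inhba (0.310 nCPM), Stard4 (242.9 nCPM) and Tnfrsf11b (0.612 nCPM) and low for Eno1b (0.612 nCPM).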

How the results depend on the processing

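The number of genes higher than control stayed within 1.5 times of 5535 except with a term for fractions in place of zeros (2928) and over the libraries with such fractions alone, knockout 2 and 3 against 6 controls (2174, an alternative chosen after seeing the data). The number lower stayed within 1.5 times of 2874 under every alternative run. Leaving out single libraries gave 4973 to 6031 higher and 2623 to 2918 lower. The difference of Braf lay between 0.70 and 0.83 on leaving out single libraries, and at 0.56 with an adjusted p of 0.0549 over the fraction libraries alone.

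Counts against Braf adenomas, 7 higher and 55 lower, moved under most settings. They were 4 and 21 with a pseudocount of 0.25, 3 and 18 with a filter at 5 nCPM, 1 and 1 with the 2 groups alone, 2 and 13 with the fraction term, 2 and 3 without knockout 1 and 2, and 3 and 12 without knockout 2 and 7, the last chosen after seeing the data. The number lower was 24 after rescaling by trimmed means, 17 by median ratios, 36 without mitochondrial genes and 35 with array weights. Leaving out single libraries gave 3 to 14 higher and 12 to 127 lower.

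Deviations of knockout and control libraries with the same replicate number correlated at -0.1629, -0.0115 and -0.0119 across genes. These few pairs gave no sign that the number pairs mice, but they cannot exclude it. With the number as a replicate block, 5211 genes were higher and 2141 lower than control, and 2 higher and 6 lower than Braf adenomas. Calls against control of Birc3, Dnmt3b, Muc13, Nfe2l2, Nos2, Pigr and Tnfaip3 were then lost.

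Of 179 called genes named, 16 lost the call under at least 1 alternative. Some list members whose call single libraries decided had been left out of the named genes. The 16 is therefore no measure for called genes at large. With the fraction term the differences were -2.32 for Apoa4, 0.52 for Cdk1, 0.70 for Dnmt3b, -1.13 for Gata4, 1.25 for Lyz2, 0.44 for Slc16a1, 0.94 for Plet1, 0.89 for Sting1 and -0.43 for Zbed3, and the cause was not tested. Directions of uncalled genes turned for Chka (0.18 with that term and over the fraction libraries), Ltf (-0.026 with that term), Fosl2 (-0.0021 after trimmed means), Gstp1 (0.049 with the block), and Retnlb and Slc13a1 (0.017 and 0.022 without knockout 1 and 2; Retnlb also 0.017 without knockout 2 and 7). Single calls against their list were lost with the fraction term in the colon, fatty acid oxidation, keratin, gastric and crypt lists. Depth limits genes under about 0.476 nCPM, the value of 3 normalised counts.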

Other observations

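The library that was titled as a knockout but carried a Braf genotype label and library name entered no comparison. Its values are given without a group. It held 0 nCPM of Lct, 2721 nCPM of Clu, 5.1 nCPM of Gstp2, 1.85 nCPM of Lcn2 and 94.6 nCPM of Plet1. Its correlation of log2(nCPM + 1) across genes had a median of 0.9334 with the 6 knockout adenomas, 0.9549 with the 5 Braf adenomas and 0.7837 with the 6 controls.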
